A study of Homo sapiens with 6 samples.

Results

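The HOXA7, HOXC4, HOXC5, HOXC6 and MEIS1 loci were examined for di- and trimethylation of lysine 79 of histone H3 (H3K79me2 and H3K79me3) in 293T, an established human cell line of embryonic kidney origin with the SV40 large T antigen. The deposited lists give peak positions and no gene symbols, so each locus was a fixed hg19 window, and every listed peak that shared at least 1 bp with a window was taken. HOXA7 was chr7:27193338-27196296, within a HOXA cluster window used for context, chr7:27132000-27240000. HOXC4, HOXC5 and HOXC6 shared the window chr12:54384000-54450000, and MEIS1 was chr2:66662532-66799891. The windows of the 5 genes held 13 of the 25683 peaks of the 4 ChIP lists. Merged across lists, these formed 5 of 8899 regions, of which 4 lay in the HOXC window, 1 in the MEIS1 window and 0 in the HOXA7 window. The label HOXA7 therefore names a window in which no list had a peak. The loci were chosen by gene and position with the listed peaks already known, so the presence of peaks and their tags are given as a description.

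Both lines were 293T cells with a stable short hairpin RNA, either a control hairpin (shCTL, the control cells) or one directed at KDM2B (shKDM2B, the knockdown cells). Chromatin immunoprecipitation and sequencing (ChIP-seq) of each line gave 1 H3K79me2 library, 1 H3K79me3 library and 1 input library made without antibody. The libraries held 11912494 to 17044011 tags after removal of duplicates, and knockdown H3K79me2 was the shallowest ChIP library with 13144744. No value has a replicate check, no test between the lines was possible, and how far KDM2B was lowered is not measured by these files. The sources used here do not give the number of clones behind a line or of hairpins against KDM2B.

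HOX genes encode homeodomain transcription factors that pattern the body axis, and they lie in clusters whose gene order matches the order of their expression along that axis. MEIS1 encodes a TALE-class homeodomain protein that binds DNA together with HOX and PBX proteins. H3K79 is methylated by DOT1L, mainly over the 5′ part of transcribed genes, and HOXA genes and MEIS1 are well known for depending on DOT1L in leukaemias with MLL fusions. KDM2B carries a JmjC domain and a CXXC zinc finger that binds unmethylated CG dinucleotides. The study asked whether KDM2B removes methyl groups from H3K79.

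The sequences just upstream of the gene starts are shown because MEIS1 had peaks near the 5′ end of its window in each ChIP list, HOXA7 had none, and CG is the dinucleotide that the CXXC domain of KDM2B recognises. They are the 250 bases before the start that RefSeq annotates, 5′ to 3′ on the gene's strand, with each CG in capitals. Their positions are on GRCh38.p14 and cannot be set against the hg19 positions of the peaks: chr7:27156676-27156925 (minus strand) for HOXA7, chr2:66434875-66435124 (plus strand) for MEIS1, and chr12:54016638-54016887 (plus strand) for HOXC4.
HOXA7: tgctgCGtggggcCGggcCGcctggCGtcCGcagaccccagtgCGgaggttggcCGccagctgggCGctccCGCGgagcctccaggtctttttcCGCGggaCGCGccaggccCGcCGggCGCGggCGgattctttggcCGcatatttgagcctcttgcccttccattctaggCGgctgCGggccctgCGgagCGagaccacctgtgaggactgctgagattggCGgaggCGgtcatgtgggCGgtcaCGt
MEIS1: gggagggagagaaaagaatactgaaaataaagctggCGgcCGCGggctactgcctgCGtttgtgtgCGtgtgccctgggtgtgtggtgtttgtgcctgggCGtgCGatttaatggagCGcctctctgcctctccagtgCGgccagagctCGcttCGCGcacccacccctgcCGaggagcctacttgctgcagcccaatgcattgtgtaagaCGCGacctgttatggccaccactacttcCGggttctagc
HOXC4: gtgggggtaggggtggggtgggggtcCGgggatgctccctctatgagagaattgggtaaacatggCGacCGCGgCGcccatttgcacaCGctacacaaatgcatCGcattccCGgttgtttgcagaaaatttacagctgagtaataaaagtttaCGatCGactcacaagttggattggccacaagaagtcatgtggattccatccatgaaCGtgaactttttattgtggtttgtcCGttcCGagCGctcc
The RefSeq table held entries for 4 of the 5 genes: HOXA7, HOXC4, HOXC5 and MEIS1. The HOXC5 entry is the same sequence as that of HOXC4.

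The HOXA7 sequence was the richest of the 3 in CG, with 28 CG dinucleotides and a GC content of 70.8%. MEIS1 had 16 CG at 59.6% GC, and HOXC4 had 14 CG at 50.8% GC. Among 34943 RefSeq promoters cut to the same 250 bases, 93.9% held at least 1 CG and the median was 11. HOXA7 had more CG than 84.2% of them, MEIS1 more than 59.2% and HOXC4 more than 55.3%. CG reads the same on both strands, so 1 search covers both. These counts describe the letters only. Of the 3 loci shown, the one with the most CG was the one without a peak. Its window was also the shortest, at 3.0 kb against 66.0 kb for HOXC and 137.4 kb for MEIS1. In control cells an H3K79me3 peak began 4.7 kb outside the HOXA7 window. A relation between CG and peaks was not tested.

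No library had a peak in the HOXA7 window, which is 2959 bp long. The same held for both input lists. HOXA7 encodes a homeodomain factor from the middle of the HOXA cluster. Its window lay inside a span of 47.8 kb, from 27153241 to 27201030 on chromosome 7, in which none of the 6 lists had a peak. A peak list holds only what passed the caller's threshold, so an empty window is not a level of 0 and allows no upper limit.

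The peak nearest to HOXA7 belonged to H3K79me3, on the high-coordinate side. This is the 5′ side of HOXA7, which RefSeq places on the minus strand, and the RefSeq gene order puts HOXA9 and HOXA10 next on that side. In control cells the nearest H3K79me3 peak began 4.7 kb from the window, and in knockdown cells 5.0 kb from it. The nearest H3K79me2 peak on that side was farther off, at 41.1 kb in control and 23.7 kb in knockdown cells. On the low-coordinate side the nearest H3K79me3 peak ended 40.1 kb away in both lines, and the nearest H3K79me2 peak ended 54.9 kb away in control and 54.7 kb in knockdown cells. Which gene each neighbouring peak falls in was not settled, because an hg19 annotation was not used here.

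**Figure D1:**
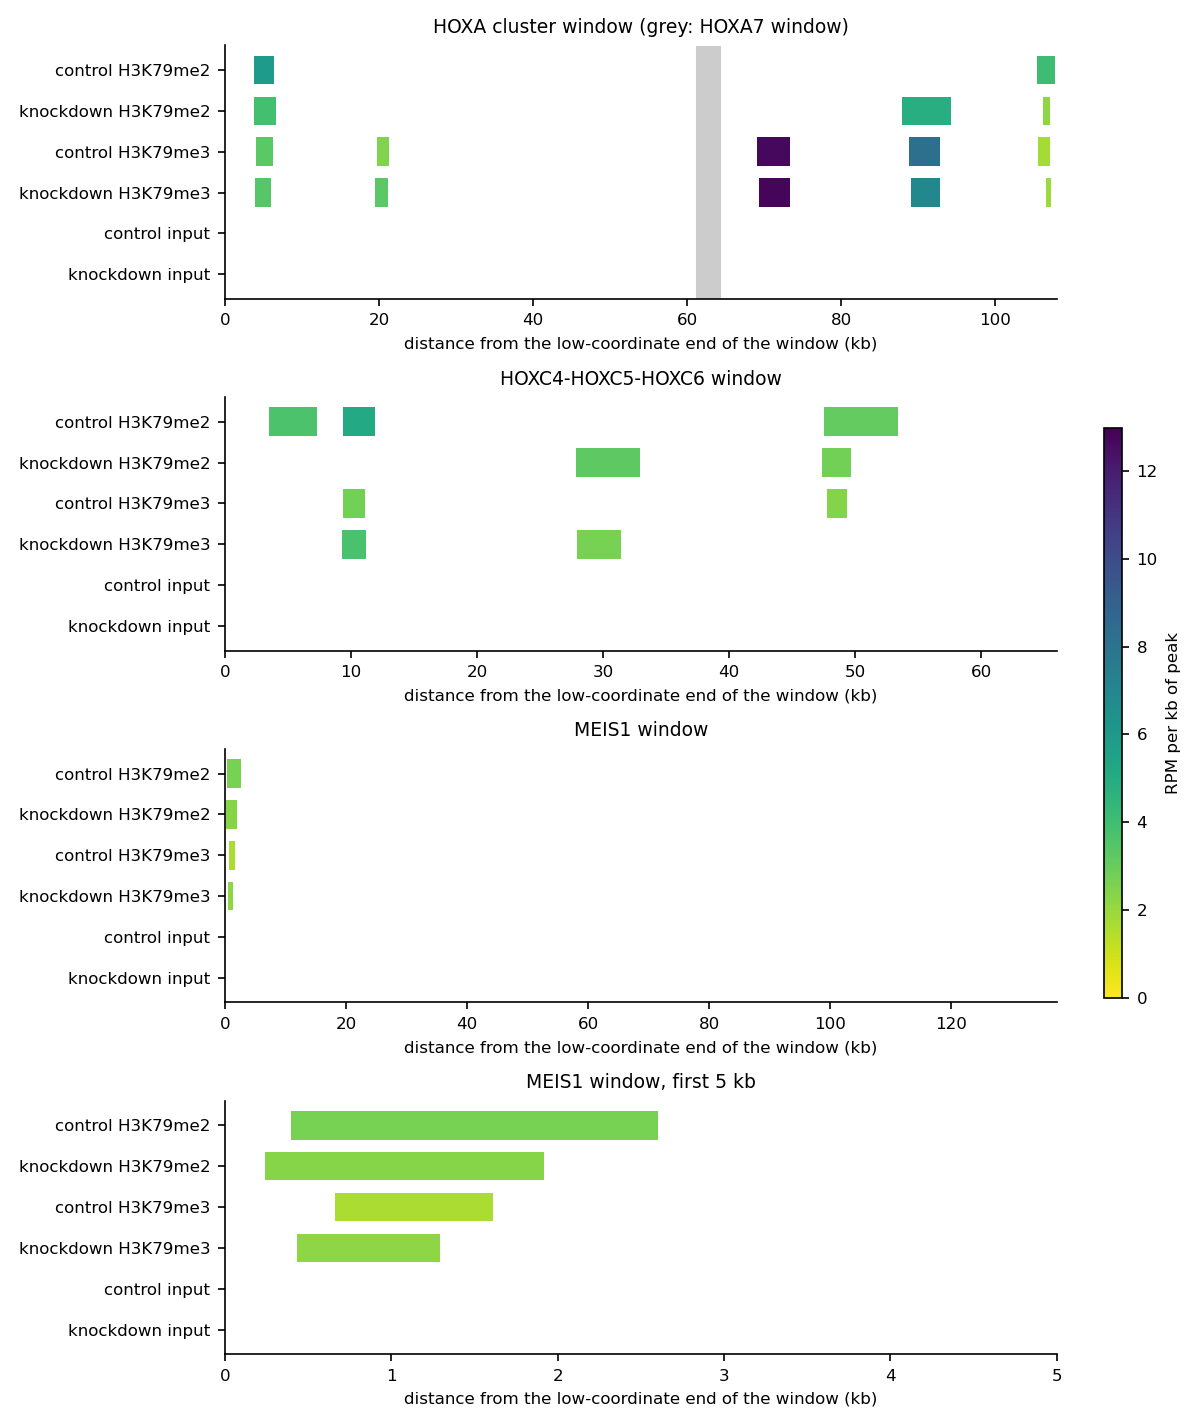
Listed peaks of each library (rows) along the HOXA cluster, HOXC and MEIS1 windows, with x as the distance in kb from the low-coordinate end and colour as RPM per kb of peak, where RPM is tags per 1000000 filtered tags. The grey HOXA7 window holds no peak in any row, the input rows are empty, and the MEIS1 peaks all lie within the first 2605 bp.

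Around HOXA7, the HOXA cluster window of 108.0 kb held 15 ChIP peaks in 5 regions, numbered 1 to 5 from the low coordinate. H3K79me3 covered 12.5% of this window in control cells and 11.4% in knockdown cells, and H3K79me2 covered 4.63% and 9.40%. For scale, each ChIP list covered between 0.643% and 0.776% of the effective genome size of 2.7 Gb. H3K79me3 was listed in all 5 regions in both lines. H3K79me2 was listed in regions 1 and 5 in both lines and in region 4 in knockdown cells only. Of all merged regions, 44.1% had both marks in both lines, as regions 1 and 5 did. H3K79me3 alone in both lines, as in regions 2 and 3, was the combination in 6.08%, and that of region 4 in 1.10%.

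The densest H3K79me3 of the cluster lay in region 3, the region next to HOXA7, and there the lines had the same level. Levels are given as RPM, tags per 1000000 tags left after removal of duplicates, and per kb of called peak, with exact Poisson 95% intervals that cover counting error only. Region 3 (27201031 to 27205395) had 931 tags in 4297 bp in control cells, or 12.7 RPM per kb (95% interval 11.9 to 13.6). In knockdown cells it had 856 tags in 4090 bp, or 12.8 RPM per kb (95% interval 11.9 to 13.7). These intervals overlap almost fully, and the log2 ratio, knockdown over control, was 0.01 (95% interval -0.13 to 0.14).

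The region 3 peaks were as dense as or denser than 96.9% of control and 94.9% of knockdown H3K79me3 peaks. Their fold enrichment over the caller's local background, however, was 2.69 in control and 2.95 in knockdown cells, values that only 0.411% and 1.30% of the peaks in each list did not exceed. High density thus went with a low fold there. No H3K79me2 peak was listed in region 3 in either line. The caller took the local background from up to 10000 bp around a site within the same library, and its part in the missing H3K79me2 calls was not tested.

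Region 4 of the cluster, from 27219949 to 27226325, was the next densest. Control H3K79me3 had 561 tags in 4000 bp, or 8.23 RPM per kb, and knockdown H3K79me3 had 421 tags in 3706 bp, or 6.93. The log2 ratio was -0.25 (95% interval -0.43 to -0.06), which 0.904% of all regions with H3K79me3 in both lines reached or fell below. Per kb this is the only H3K79me3 region of the cluster whose interval lay below 0. Knockdown H3K79me2 had a peak of 6377 bp there with 406 tags, or 4.84 RPM per kb. Its score, 10 times the negative log10 of the caller's p, was 53.04 against a lowest listed score of 50.02.

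Regions 1 and 5, at either end of the cluster window, carried both marks in both lines, and their H3K79me2 was lower in knockdown cells. In region 1 (27135756 to 27138612) H3K79me2 stood at 5.92 RPM per kb from 250 tags in control and 3.88 from 144 tags in knockdown cells, which is a log2 ratio of -0.61 (95% interval -0.91 to -0.31). H3K79me3 in region 1 was 3.35 and 3.41 RPM per kb, from 124 and 119 tags. The H3K79me2 values do not overlap in their intervals, and the H3K79me3 values do.

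In region 5 (27237438 to 27239796) H3K79me2 was 4.05 RPM per kb from 153 tags in control and 2.23 from 28 tags in knockdown cells, which gave a log2 ratio of -0.86 (95% interval -1.50 to -0.27). H3K79me3 in region 5 was 1.76 and 1.96 RPM per kb from 48 and 21 tags, and its log2 ratio per kb was 0.15 (95% interval -0.66 to 0.92). By summed tags the H3K79me3 ratio of region 5 turned to -1.14 (95% interval -1.95 to -0.37). The calls in region 5 were shorter in knockdown cells, at 956 against 2359 bp for H3K79me2 and 655 against 1599 bp for H3K79me3. Region 2 (27151476 to 27153240) had H3K79me3 alone, at 2.49 RPM per kb in control and 3.34 in knockdown cells, with a log2 ratio of 0.43 per kb (95% interval -0.05 to 0.92) and 0.68 by summed tags (95% interval 0.20 to 1.17).

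The HOXC window was 66.0 kb long and held 9 of the 13 peaks of the 5 genes. Each of its 4 regions lacked a peak in at least 1 ChIP library, while 44.1% of all merged regions had a peak in all 4. HOXC4, HOXC5 and HOXC6 encode homeodomain factors, and in RefSeq HOXC4 and HOXC5 start at the same upstream position. HOXC6 had no promoter entry, so its start was not compared. HOXC4, the longest, spans 39143 bp in RefSeq, so the window also holds sequence outside all of these genes. HOXC8 and HOXC9 are the next coding genes on the low-coordinate side in RefSeq order, and the regions at that end may belong to them. H3K79me2 peaks covered 18.5% of the window in control and 11.2% in knockdown cells, and H3K79me3 peaks 4.99% and 8.14%. The inputs had no peak there.

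HOXC region 1 (54387528 to 54391278) was listed for control H3K79me2 only, with 221 tags in 3751 bp, or 3.68 RPM per kb (95% interval 3.21 to 4.20). This peak was close to the weak end of its list by fold, at 2.89, which 0.791% of the list did not exceed, and its score was 77.77. Peaks of control H3K79me2 alone made up 6.33% of all merged regions.

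HOXC region 2 (54393313 to 54395867) carried control H3K79me2 and H3K79me3 in both lines, but no knockdown H3K79me2 peak. Control H3K79me2 had 210 tags in 2535 bp, or 5.17 RPM per kb (95% interval 4.50 to 5.92), the highest level in the HOXC window. H3K79me3 had 80 tags in 1697 bp in control cells, or 2.77 RPM per kb, and 114 tags in 1876 bp in knockdown cells, or 3.71. The H3K79me3 log2 ratio was 0.42 (95% interval 0.00 to 0.85), with a counting SE of 0.21. Knockdown cells were thus higher in H3K79me3 by 1.34-fold, with an interval that reaches down to equality. By summed tags the log2 ratio was 0.57 (95% interval 0.14 to 1.00). This combination of peaks was found in 5.67% of merged regions.

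HOXC region 3 (54411888 to 54416948) was listed in knockdown cells only, and for both marks. H3K79me2 had 213 tags in 5061 bp, or 3.20 RPM per kb (95% interval 2.79 to 3.66), and H3K79me3 had 152 tags in 3499 bp, or 2.65 RPM per kb (95% interval 2.25 to 3.11). Both marks in knockdown cells and neither in control cells was the combination in 1.78% of merged regions. The H3K79me2 peak had a score of 60.35 and a fold of 3.19, which put it at or above only 8.32% and 3.41% of its list. The H3K79me3 peak had a score of 100.88 and a fold of 4.72.

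HOXC region 4 (54431373 to 54437435) showed another gap: H3K79me2 was listed for both lines, and of the H3K79me3 lists only that of control cells had a peak. That combination was found in 0.562% of merged regions. H3K79me2 had 294 tags in 5897 bp in control cells, or 3.11 RPM per kb, and 85 tags in 2326 bp in knockdown cells, or 2.78. Per kb the lines were close, with a log2 ratio of -0.16 (95% interval -0.53 to 0.19), while by summed tags it was -1.51, since the control call was the longer. Control H3K79me3 had 65 tags in 1594 bp there, or 2.39 RPM per kb. Its score of 129.73 was higher than that of either H3K79me2 peak in this region, 75.34 in control and 71.13 in knockdown cells.

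Summed over the HOXC window, H3K79me2 was lower and H3K79me3 higher in knockdown cells by tags, and closer per kb. H3K79me2 peaks held 45.3 RPM in control and 22.7 RPM in knockdown cells, over called lengths of 12183 and 7387 bp. H3K79me3 peaks held 8.51 and 16.2 RPM over 3291 and 5375 bp. Per kb, H3K79me2 was 3.72 and 3.07 in that order, a log2 ratio of -0.28 (95% interval -0.48 to -0.08). H3K79me3 was 2.59 and 3.02 per kb, a log2 ratio of 0.22 (95% interval -0.07 to 0.53). Different regions entered these sums in each library, so the sums compare what was called and not the same sequence.

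Long spans of the HOXC window had no peak in any list. They ran from 54395868 to 54411887 (16.0 kb), from 54416949 to 54431372 (14.4 kb) and from 54437436 to the window's end (12.6 kb). Past the last peak of the window, no ChIP or input peak was listed for 143.9 kb. Just outside the low-coordinate edge, peaks ended 2.7 kb away for control H3K79me2, 2.5 kb for knockdown H3K79me2 and 3.2 kb for knockdown H3K79me3. The nearest control H3K79me3 peak on that side was 314.2 kb away.

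**Figure D2:**
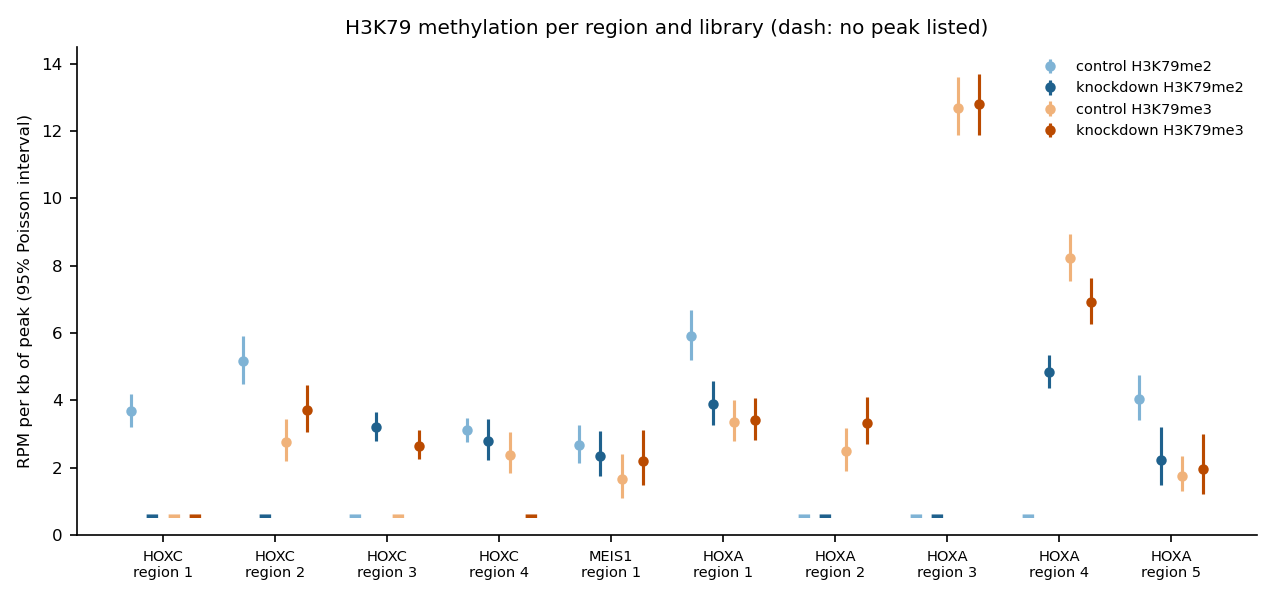
RPM per kb of peak (y) in each region of the HOXC, MEIS1 and HOXA cluster windows (x), with 1 point per library, exact Poisson 95% intervals, and a dash where no peak was listed. HOXC regions 1 and 3 have points from 1 line only, MEIS1 has a point for each ChIP library between 1.67 and 2.66, and HOXA region 3 stands highest at 12.7 and 12.8.

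MEIS1 had 1 small peak of each mark in each line, all at the low-coordinate end of its window. MEIS1 lies on the plus strand in RefSeq, so this is the 5′ end of the gene. The peaks spanned 400 to 2605 bp from the window's edge for control H3K79me2 and 238 to 1919 bp for knockdown H3K79me2. For H3K79me3 they spanned 663 to 1613 bp in control and 435 to 1293 bp in knockdown cells. The summits lay 1025 and 1298 bp from the edge for control H3K79me2 and H3K79me3, and 685 and 677 bp from it in knockdown cells. In each line the H3K79me3 peak was the shorter and lay within the ends of the H3K79me2 peak.

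The MEIS1 levels rested on few tags. H3K79me2 had 94 tags in 2206 bp in control cells, or 2.66 RPM per kb (95% interval 2.15 to 3.26), and 52 tags in 1682 bp in knockdown cells, or 2.35 (95% interval 1.76 to 3.08). H3K79me3 had 27 tags in 951 bp in control cells, or 1.67 RPM per kb (95% interval 1.10 to 2.42), and 31 tags in 859 bp in knockdown cells, or 2.20 (95% interval 1.5 to 3.13). For each mark the intervals of the lines overlap. The log2 ratio, knockdown over control, was -0.18 for H3K79me2 (95% interval -0.70 to 0.33) and 0.40 for H3K79me3 (95% interval -0.39 to 1.20). Per kb, a difference between the lines at MEIS1 was not detectable at this depth for either mark. By summed tags, which follow the called length, the log2 ratio was -0.57 for H3K79me2 (95% interval -1.09 to -0.07) and 0.26 for H3K79me3 (95% interval -0.54 to 1.06), so H3K79me2 was lower in knockdown cells beyond counting error on that scale only.

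The MEIS1 peaks were sparse in tags but stood well above their surroundings by fold. Their density reached or passed that of 22.5% of the control and 17.2% of the knockdown H3K79me2 list, and that of 4.29% and 7.68% of the H3K79me3 lists, control first. Their fold enrichment was 7.35 and 6.67 for H3K79me2 and 7.51 and 9.92 for H3K79me3, control first. By fold they reached or passed 74.9% to 88.7% of their lists. This is the opposite arrangement to HOXA region 3, where tags were dense and the fold low. MEIS1 shared its combination of peaks, both marks in both lines, with 44.1% of all merged regions.

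**Figure D3:**
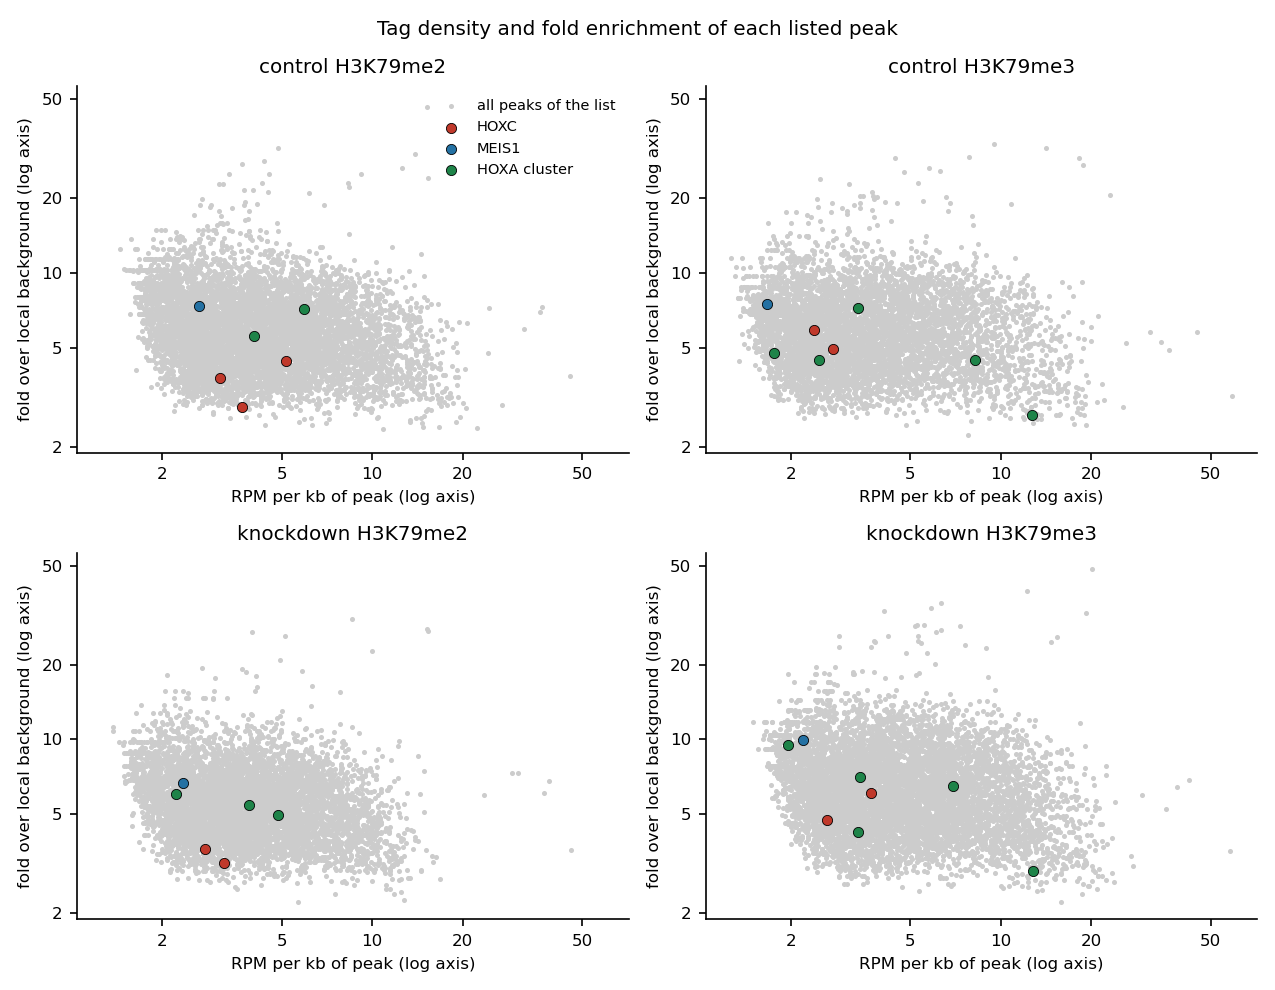
RPM per kb (x, log axis) against the authors' fold over local background (y, log axis) for every peak of each ChIP list (grey), with peaks of the HOXC, MEIS1 and HOXA cluster windows coloured. MEIS1 peaks sit at low density and high fold, up to 9.92, and the HOXA region 3 peaks of H3K79me3 at high density and low fold, 2.69 and 2.95.

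Beyond this 5′ region, the remaining 134.8 kb of the MEIS1 window had no peak in any list. The empty span went on past the gene to 67624294 on chromosome 2, 959.2 kb in all. On the other side, no list had a peak for 1003.1 kb below the first MEIS1 peak. The next peaks were H3K79me2 of both lines at 824.4 kb above the window, and H3K79me2 of both lines and knockdown H3K79me3 about 1003 kb below it. For control H3K79me3 the nearest other peaks were 1782.1 kb below and 1487.7 kb above. The MEIS1 peaks were thus isolated in all 4 ChIP lists, and the next coding genes in RefSeq order are SPRED2 and ETAA1.

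A ratio between the lines needs a peak of the same mark in both, which 1 of the 4 HOXC regions had for each mark. For H3K79me3, 44.9% of all 5087 such regions were more than 1.5-fold higher per kb in knockdown cells, and 0.177% were more than 1.5-fold lower. HOXC region 2 and MEIS1 were the regions in the windows of the 5 genes with such a ratio, and 0 of these 2 passed 1.5-fold in either direction. HOXC region 2 lies toward the low-coordinate end of its window and may belong to HOXC8 or HOXC9. In the HOXA cluster, 0 of 5 regions did. The median log2 ratio over all regions was 0.55 with quartiles at 0.36 and 0.75. The 7 ratios per kb at the HOX and MEIS1 windows ran from -0.25 to 0.43, all below that median, and 5 of them lay between the 0.904 and 30.6 percentiles, HOXC region 2 at 33.2 and HOXA region 2 at 33.7. The intervals of MEIS1, HOXC region 2, and HOXA regions 2 and 5 include 0.55, and those of HOXA regions 1, 3 and 4 do not. By summed tags HOXA region 2, at 0.68, lay above the median of 0.60 for all regions, and the others lay below it.

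For H3K79me2, 0.847% of all 5432 regions with a peak in both lines were more than 1.5-fold higher per kb in knockdown cells and 4.42% more than 1.5-fold lower. HOXC region 4 and MEIS1 gave ratios, and 0 of these 2 passed 1.5-fold in either direction. Their log2 ratios of -0.16 and -0.18 were next to the median of all regions, -0.15. By summed tags they were -1.51 and -0.57, which 0.110% and 3.90% of all regions reached or fell below, against a median of 0.00. Their place near the median therefore held per kb only. In the HOXA cluster 2 of 2 regions, regions 1 and 5, were more than 1.5-fold lower, at 0.656 and 0.550 of the control level. The regions of a window are neighbours from the same libraries and are not replicates of a condition.

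**Figure D4:**
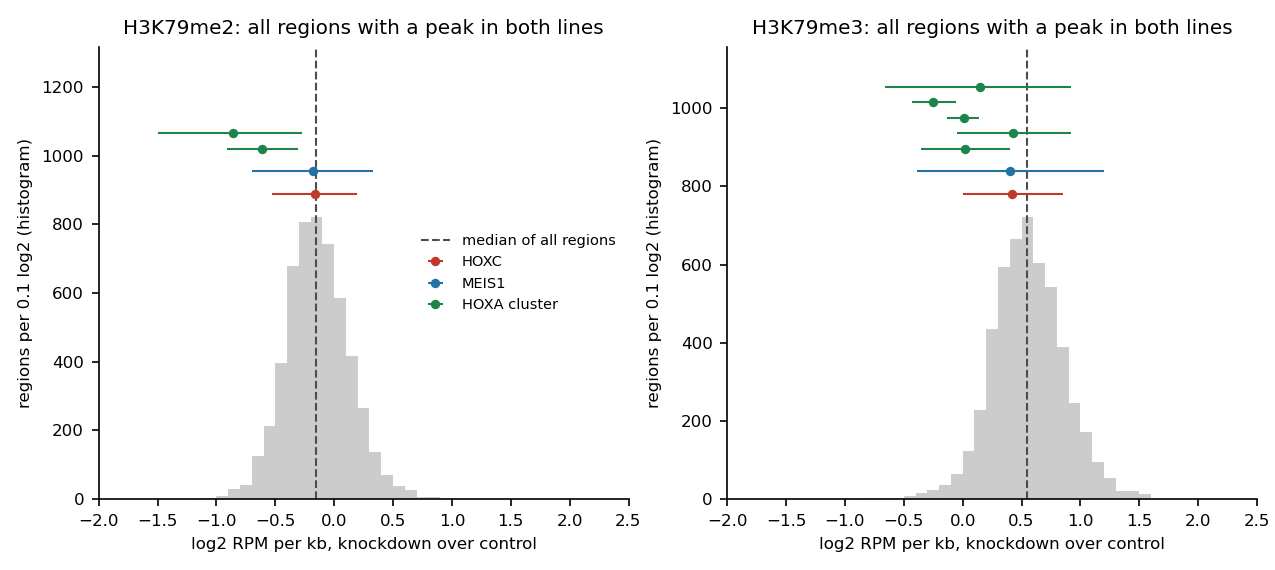
Histograms of the log2 ratio of RPM per kb, knockdown over control, for all regions with a peak in both lines (H3K79me2 left, H3K79me3 right), with the HOXC, MEIS1 and HOXA cluster regions as points with 95% counting intervals above. For H3K79me3 all 7 points lie left of the dashed median of 0.55 on this scale. For H3K79me2 the HOXC and MEIS1 points lie at the median of -0.15 and the 2 HOXA points below it.

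Within a line, the marks were compared in regions that had both, with the ratio of all such regions beside them, since the antibodies may differ in efficiency. In control cells 50.6% of all 4531 regions were more than 1.5-fold lower in H3K79me3 than in H3K79me2 per kb and 0.596% more than 1.5-fold higher. Among the 5 genes' windows 2 of 3 were lower by that measure and 0 higher, a share that rests on 3 regions. In the HOXA cluster 2 of 2 regions were lower by that measure, region 1 at a log2 ratio of -0.82 and region 5 at -1.20. The log2 ratios, H3K79me3 over H3K79me2, were -0.90 in HOXC region 2 (95% interval -1.29 to -0.52), -0.38 in HOXC region 4 (95% interval -0.79 to 0.01) and -0.68 at MEIS1 (95% interval -1.35 to -0.04). The median of all regions was -0.59.

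In knockdown cells 6.32% of all 5143 regions were more than 1.5-fold higher in H3K79me3 than in H3K79me2 and 0.739% more than 1.5-fold lower. HOXC region 3 had a log2 ratio of -0.27 (95% interval -0.58 to 0.03) and MEIS1 of -0.10 (95% interval -0.79 to 0.57), so 0 of 2 passed in either direction. Both lay below the median of all regions, 0.13, and the MEIS1 interval includes it. In the HOXA cluster, region 4 stood at 0.52 (95% interval 0.32 to 0.72), at or above 90.2% of all regions, and regions 1 and 5 at -0.19 each. By summed tags region 4 turned to -0.27 (95% interval -0.47 to -0.07), as its H3K79me2 call was 6377 bp long against 3706 bp for H3K79me3.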

How the data were processed

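The members, windows and lists were chosen with earlier results of these data known. The submitters' processing notes name Bowtie2 and the build hg19 (GRCh37). Per the file headers, the authors called peaks in each library separately with MACS 1.4.2, with no control file, a p cutoff of 1e-05, a regional background of 10000 bp and duplicates reduced to 1 tag, so the input did not enter the ChIP calls. The tag count the authors deposited for each peak is a raw count. Fold enrichment, also deposited, is a ratio to the local background of the same library. The deposited significance column is used as a score, 10 times the negative log10 of the p-value that its heading names, since its lowest value is 50.0 at that cutoff. Per the file headers the fragment length the caller estimated was 148 bp for control and 210 bp for knockdown H3K79me2, and 180 and 126 bp for H3K79me3, which can change called widths.

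Only the autosomes (1 to 22), X and Y were used, 5597 to 7066 per ChIP list. Tags and called lengths were summed over whole peaks that touch a window or region and divided by filtered tags. Peaks that overlapped by 1 bp were merged into regions. Ratios carry exact conditional binomial 95% intervals and levels exact Poisson ones, and both cover counting error only, since tags are not known to be independent molecules. With 1 library per group no test was run. All peaks in the windows were named, by rule. The planned gene-by-gene comparison, which needed an hg19 annotation, was not made. On simulated data with 200 regions planted at a log2 ratio of 1, the median recovered was 1.005 among 6827 regions of H3K79me2 and 0.986 among 5597 of H3K79me3. The simulated lines shared the same peak positions and lengths. The simulation therefore checks the arithmetic only and cannot show how ratios behave where called lengths differ, as they do here. The software was scipy 1.17.1, numpy 2.4.6 and pandas 2.3.3 under Python 3.11.15.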

Additional observations from a re-analysis of the deposited data

Results flagged for a closer look

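At MEIS1 the log2 ratio of RPM per kb, knockdown over control, was -0.18 for H3K79me2 and 0.40 for H3K79me3, so the marks had opposite signs, and both intervals include 0. Summed over the HOXC window it was -0.28 for H3K79me2 and 0.22 for H3K79me3, and the latter interval, -0.07 to 0.53, includes 0. The HOXC sums cover different sequence: no HOXC region had both marks in both lines, and the only shared regions were region 4 for H3K79me2 (-0.16) and region 2 for H3K79me3 (0.42). With 1 library per group the opposite signs were not tested. Over all regions with a peak in both lines the medians were -0.15 and 0.55 per kb, and 0.00 and 0.60 by summed tags. The lower median of H3K79me2 over all regions therefore held per kb only. At MEIS1 and in the HOXC sums H3K79me2 was lower in knockdown cells by summed tags as well.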

How the results depend on the processing

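No paired analysis was possible because each group has 1 library. Every ChIP peak taken lay wholly inside its window, and neither input list had a peak in any window. Requiring 50% of a peak inside the window and leaving out peaks on input peaks therefore left every count and ratio unchanged by construction. These 2 settings are no check of the results. Dividing by total tags moved no ratio beyond its counting interval. The log2 ratio of H3K79me3 over H3K79me2 per kb in knockdown cells, for example, was then 0.73 in the HOXA cluster, against 0.79 as reported. Widening the windows by 5 kb on each side moved no ratio beyond its counting interval. The HOXA7 window then held 1 control H3K79me3 peak. The knockdown H3K79me3 peak, which began 5009 bp from the window, stayed just outside. HOXC counts rose from 3 to 4 for control H3K79me2 and from 2 to 3 for each mark in knockdown cells. No count that was above 0 changed by over 1.5 times.

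With a score of at least 100, the HOXA cluster held 1 knockdown H3K79me2 peak and 3 H3K79me3 peaks in control and 3 in knockdown cells. The HOXC window held 1 control and 0 knockdown H3K79me2 peaks, and MEIS1 held 0 control H3K79me3 peaks. The ratio between lines was thus lost for H3K79me2 in HOXC and for H3K79me3 at MEIS1. So was the ratio of the marks for HOXC in knockdown cells and for MEIS1 in control cells. The other mark kept its ratio between lines, 0.22 for H3K79me3 in HOXC and -0.18 for H3K79me2 at MEIS1. The log2 ratio of H3K79me3 over H3K79me2 per kb became 0.85 in control (0.57 as reported) and 1.14 in knockdown cells (0.79) for the HOXA cluster, and -1.0 in control cells (-0.52) for HOXC. These window ratios sum over different regions for each mark. In control cells the HOXA regions with both marks had the other sign, -0.82 in region 1 and -1.20 in region 5.

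With the 5597 highest-scoring peaks of each list, the HOXA cluster held 3 knockdown H3K79me3 peaks and the HOXC window 1 H3K79me2 peak in control and 1 in knockdown cells. The knockdown over control log2 ratio per kb was then -0.54 for H3K79me2 and 0.20 for H3K79me3 in the HOXA cluster. That H3K79me3 ratio set 5 control peaks against 3 knockdown peaks, so the lines were summed over different sets of regions. In HOXC the ratio was -0.90 for H3K79me2, where the remaining peaks lie in different regions. H3K79me3 over H3K79me2 was 1.31 in knockdown cells for the HOXA cluster and -1.0 in control cells for HOXC.

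By summed tags, not per kb, the knockdown over control log2 ratio was 0.81 for H3K79me2 (against -0.22 per kb) and -0.13 for H3K79me3 (0.00 per kb) in the HOXA cluster, -1.0 for H3K79me2 and 0.93 for H3K79me3 in HOXC, and -0.57 (95% interval -1.09 to -0.07, against -0.18 per kb) for H3K79me2 at MEIS1. H3K79me3 over H3K79me2 was 2.01 and 1.07 for the HOXA cluster, -2.41 and -0.48 for HOXC, and -1.89 and -1.06 for MEIS1, control first. Summed tags follow the called length by construction. At MEIS1 the 27 to 94 tags per peak limit what could be seen.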
